A study of Mus musculus with 6 samples.

Results

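The 9 genes described here govern the passage of a cell through the G1 phase of its cycle. They are the D-type cyclin genes *Ccnd1*, *Ccnd2* and *Ccnd3*, the genes of their partner kinases, *Cdk4* and *Cdk6*, the Myc genes *Mycn* and *Myc*, and the Cip/Kip inhibitor genes *Cdkn1b* and *Cdkn1c*. A Gli3 binding site was given to a gene when its midpoint lay inside the gene or within 100 kb of the transcription start site (TSS) of the gene. By this rule 13 of the 4114 sites belonged to the set, and no site belonged to more than 1 of the 9 genes. Of the genes, 6 had a site and 3 had none.

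The sites came from chromatin immunoprecipitation and sequencing (ChIP-seq) of Gli3 in the cerebral cortex of wild-type mouse embryos at embryonic day 15. There were 3 Gli3 ChIP libraries and 3 libraries of input DNA, which is chromatin taken before the antibody. The authors joined them in 1 list of positions, so that there is no height, no read depth and no error between replicates behind any site, and all values below are descriptions. The tissue holds radial glial cells (RGCs), intermediate progenitors and neurons together, and the list does not say in which of them a site was bound.

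In G1, D-type cyclins bind Cdk4 or Cdk6, and the active kinases phosphorylate the retinoblastoma protein, which releases E2F factors and lets the genes of DNA replication be transcribed. Cip/Kip proteins such as p27 (*Cdkn1b*) and p57 (*Cdkn1c*) bind cyclin and kinase complexes and hold cells back, and in the cortex they accompany the exit of progenitors from the cycle. Myc proteins pair with Max on the E-box CACGTG and drive growth and division. Sonic hedgehog (Shh) is a mitogen for several neural progenitors, and *Ccnd1*, *Ccnd2* and *Mycn* are known to rise with it in the precursors of cerebellar granule neurons. Without Shh, Gli3 is processed to a repressor that recognises the same DNA as the activating Gli factors. The 9 bases GACCACCCA at the heart of that sequence are called the GLI core below.

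The sequences below, read from GRCm38 (mm10) on the strand given, show the words on which the description of these sites turns. Only 1 of the 13 sites held an exact GLI core. It was in the site over the *Ccnd2* TSS, on the minus strand, and is in capitals in this stretch:

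*Ccnd2*, chr6:127154387-127154435: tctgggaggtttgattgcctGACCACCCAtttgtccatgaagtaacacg

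The first 8 bases of the core, GACCACCC, also occurred without the last base in the same *Ccnd2* site, in a pair of *Cdk6* sites and in a *Cdk4* site. The following stretches show those of *Ccnd2* and *Cdk6* in capitals, the first on the minus strand and the others on the plus strand. The first *Cdk6* stretch also holds a CACGTG in capitals:

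*Ccnd2*, chr6:127153300-127153347: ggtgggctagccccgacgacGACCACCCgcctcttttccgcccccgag

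*Cdk6*, chr5:3343586-3343693: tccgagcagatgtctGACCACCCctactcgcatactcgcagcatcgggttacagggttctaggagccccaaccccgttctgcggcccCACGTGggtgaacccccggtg

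*Cdk6*, chr5:3403948-3403995: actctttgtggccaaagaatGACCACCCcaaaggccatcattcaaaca

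The site over *Ccnd1* held neither word. Its 4 nearest approaches to the GLI core, with 1 base changed, are given in capitals, on the plus strand except for the third, which is on the minus strand:

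*Ccnd1*, chr7:144937819-144937867: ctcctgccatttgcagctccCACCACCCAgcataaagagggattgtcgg

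*Ccnd1*, chr7:144938224-144938272: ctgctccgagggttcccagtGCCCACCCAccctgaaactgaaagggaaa

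*Ccnd1*, chr7:144941286-144941334: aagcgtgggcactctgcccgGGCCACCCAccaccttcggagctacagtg

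*Ccnd1*, chr7:144942734-144942782: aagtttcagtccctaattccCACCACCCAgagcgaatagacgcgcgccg

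The centre of the only *Myc* site, on the plus strand, held 1 match of the same kind, in capitals:

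*Myc*, chr15:61974367-61974516: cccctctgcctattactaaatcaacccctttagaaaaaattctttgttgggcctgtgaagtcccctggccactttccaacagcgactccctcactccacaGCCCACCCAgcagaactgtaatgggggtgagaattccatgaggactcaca

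E-boxes of Myc and Max, CACGTG, recurred in the sites over *Ccnd1* and *Ccnd2*. These stretches, on the minus strand, each show a close pair of them in capitals:

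*Ccnd1*, chr7:144943274-144943488: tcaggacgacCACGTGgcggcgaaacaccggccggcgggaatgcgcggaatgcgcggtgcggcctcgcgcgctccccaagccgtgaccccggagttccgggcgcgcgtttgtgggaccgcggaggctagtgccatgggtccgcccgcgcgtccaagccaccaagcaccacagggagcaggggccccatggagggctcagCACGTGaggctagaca

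*Ccnd2*, chr6:127153640-127153773: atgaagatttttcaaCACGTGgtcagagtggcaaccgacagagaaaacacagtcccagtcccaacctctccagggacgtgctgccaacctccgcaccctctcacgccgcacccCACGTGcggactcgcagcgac

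The site over the *Mycn* TSS held the E2F word TTTGGCGC in 2 copies just upstream of the TSS. They are in capitals in the following stretch of the minus strand, together with an SP word, GGGCGGGG:

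*Mycn*, chr12:12941915-12942086: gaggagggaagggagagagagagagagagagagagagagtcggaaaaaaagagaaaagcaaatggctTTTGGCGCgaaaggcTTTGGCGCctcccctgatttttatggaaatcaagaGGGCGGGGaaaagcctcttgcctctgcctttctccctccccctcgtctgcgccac

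The stretch upstream of the *Cdk4* TSS is shown for contrast. It lay in no Gli3 site, and its 4 copies of CACGTG are in capitals on the plus strand:

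*Cdk4*, chr10:127063285-127063533: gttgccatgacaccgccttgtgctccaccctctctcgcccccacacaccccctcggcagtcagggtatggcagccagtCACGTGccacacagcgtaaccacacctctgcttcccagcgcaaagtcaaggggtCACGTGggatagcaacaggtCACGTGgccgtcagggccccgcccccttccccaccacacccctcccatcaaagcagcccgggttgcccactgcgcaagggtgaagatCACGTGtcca

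Sites were counted per gene first. *Cdk6* had 4 sites, *Mycn* had 3, *Ccnd2* and *Cdk4* had 2 each, and *Ccnd1* and *Myc* had 1 each, while *Ccnd3*, *Cdkn1b* and *Cdkn1c* had none. The share with a site was 66.7% (6 of 9), and among the 21938 protein-coding genes of the GENCODE M21 annotation it was 37.4% under the same rule. Members with 3 or more sites numbered 2, *Cdk6* and *Mycn*, and 4.33% of coding genes had as many. As a density, the windows of the 9 genes held 6.88 sites per Mb and the windows of all coding genes 2.69.

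The genes also differed in where the sites lay. A site midpoint lay within 2 kb of the TSS at 4 of the 9 genes, *Ccnd1*, *Ccnd2*, *Cdk6* and *Mycn*, against 6.88% of coding genes. A site covered the TSS itself at the same 4 genes, against 6.22% of coding genes. No further member was added at 10 kb, a distance within which 9.7% of coding genes had a site. With *Myc* next at 10949 bp and *Cdk4* at 21733 bp, the remaining genes had their nearest site beyond 100 kb.

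**Figure D1:**
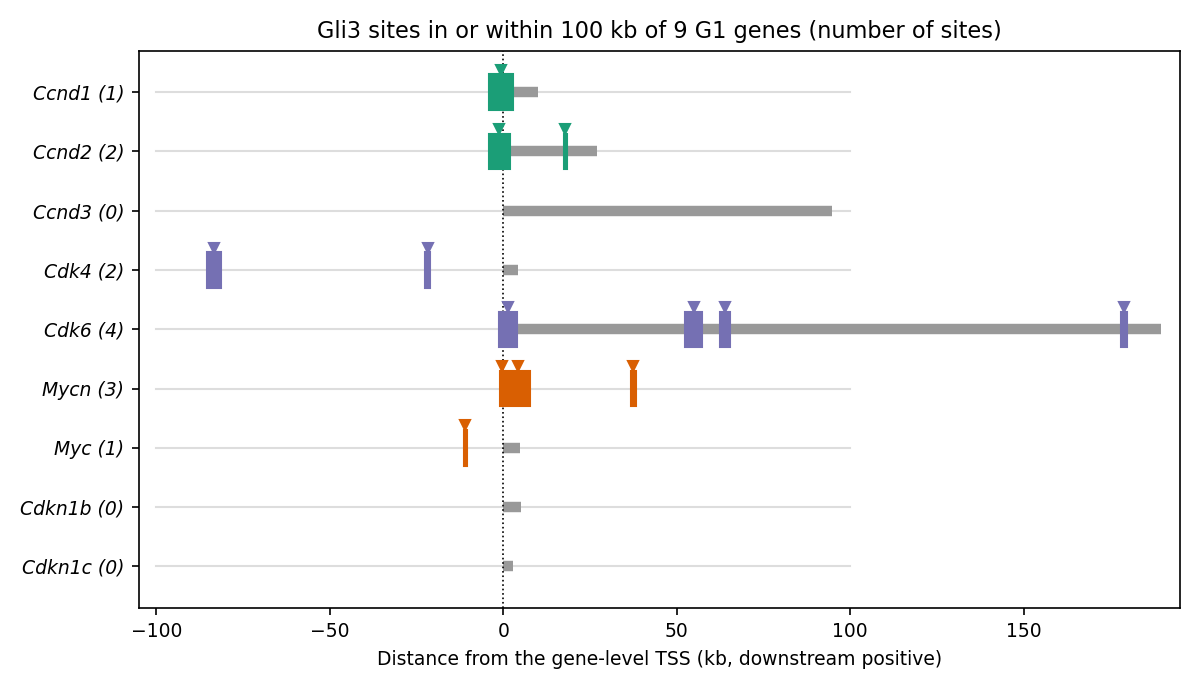
Gli3 sites of the 9 genes, drawn to scale along the distance from the TSS of each gene in kb, with downstream positive. Coloured boxes are sites, triangles mark their midpoints, thick grey bars are the genes, and the number after each name counts its sites. Sites lie over the TSS of *Ccnd1*, *Ccnd2*, *Cdk6* and *Mycn*, and 3 rows hold no site.

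Among the D-type cyclins, *Ccnd1* and *Ccnd2* each had a wide site over the TSS and *Ccnd3* had none. *Ccnd1* (ENSMUSG00000070348.5, chromosome 7, 144929931 to 144939925, minus strand), which encodes the cyclin that links mitogens to the cycle in many tissues, had a single site of 7030 bp, from 144937006 to 144944035. It reached from -4110 to +2919 around the TSS, covered 29.2% of the gene and took in the start of all 3 annotated transcripts. Only 0.826% of all sites were as wide. *Ccnd2* (ENSMUSG00000000184.12, chromosome 6, 127125162 to 127152193, minus strand), the D-type cyclin prominent in cortical intermediate progenitors, had a site of 6017 bp over its TSS, from 127150278 to 127156294. That site reached from -4101 to +1915, covered 5 of the 7 transcript starts, and was matched in width by 1.73% of sites. Both sites thus reached farther upstream than downstream.

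The other *Ccnd2* site was small, 1004 bp from 127133753 to 127134756, and intronic, 17939 bp downstream of the TSS. It held no GLI match, even with 1 mismatch. *Ccnd3* (ENSMUSG00000034165.16, chromosome 17, 47505051 to 47599691, plus strand), the D-type cyclin best known from lymphocytes, had its nearest site 136247 bp upstream. That site, from 47367885 to 47369724, was at the promoter of *Mrps10*, a mitochondrial ribosomal protein gene, and the TSSs of 6 other coding genes lay between it and the *Ccnd3* TSS. Of all coding genes, 43.5% had a site as near as that.

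The kinase genes differed from each other. *Cdk6* (ENSMUSG00000040274.11, chromosome 5, 3341485 to 3531008, plus strand) is a gene of 189524 bp, and all its 4 sites had their midpoint inside it. The site over the TSS was 5058 bp wide, from 3340380 to 3345437, reached from -1105 to +3952, and covered 5 of the 6 transcript starts. A pair of intronic sites followed at +54970 and +63853 from the TSS, 4919 and 2786 bp wide and 5031 bp apart, from 3393996 to 3398914 and from 3403946 to 3406731. The last, of 1701 bp from 3519651 to 3521351, had its midpoint in the last intron, 179016 bp from the TSS, and ran into the last exon, whose untranslated part holds its 1 match to the GLI core with a mismatch. The nearest coding TSS to it was that of *Fam133b*, at 23332 bp. It entered the set through the gene body alone. Of all coding genes, 370 (1.69%) had 4 or more sites, and long genes have more room for sites under this rule.

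*Cdk4* (ENSMUSG00000006728.12, chromosome 10, 127063534 to 127067920, plus strand) is short and lies in a dense stretch of genes, with the TSSs of 10 other coding genes in its window. Both of its sites were over the TSSs of other genes. The nearer one, 1395 bp from 127041104 to 127042498, lay 21733 bp upstream of *Cdk4* and covered the TSSs of *Eef1akmt3* and *Mettl1*, both methyltransferase genes, the first of which was 288 bp from the midpoint. The farther one, 3912 bp from 126978153 to 126982064 at -83426 from the *Cdk4* TSS, covered the TSS of *Ctdsp2*, which encodes a small phosphatase. At *Cdk4*, then, the sites counted by distance were promoter sites of its neighbours. The RefSeq promoter of *Cdk4* shown above held CACGTG in 4 copies, a number reached by 8 of 32851 RefSeq promoter stretches, of which 7.15% held at least 1 copy. The number 4 was chosen after the copies were seen.

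The Myc genes also differed. Gli3 sites lay over most of *Mycn* (ENSMUSG00000037169.15, chromosome 12, 12936093 to 12941914, minus strand), the Myc gene of embryonic neural progenitors. A site of 6738 bp, from 12934272 to 12941009, covered 84.5% of the gene and ran beyond its end. A second, of 1685 bp from 12941286 to 12942970, covered the TSS with its midpoint 214 bp upstream, and a gap of 276 bp separated them. Together they covered 95.3% of the gene, and 1.91% of coding genes had a site midpoint as near to the TSS. The third site, 1378 bp from 12903674 to 12905051, lay 37552 bp downstream and covered the TSS of the noncoding gene *4930519A11Rik*. *Mycn* was the only coding gene with a TSS in its window.

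*Myc* (ENSMUSG00000022346.15, chromosome 15, 61985391 to 61990374, plus strand) had a single small site, 748 bp from 61974069 to 61974816. It was intergenic, 10949 bp upstream, and 93.7% of all sites were as wide or wider. No other coding gene had a TSS in the window of *Myc*, and 10.0% of coding genes had a site as near.

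The inhibitor genes had no site. For *Cdkn1b* (ENSMUSG00000003031.14, chromosome 6, 134920401 to 134925513, plus strand) the nearest was 639737 bp downstream, and 80.7% of coding genes had a site as near. For *Cdkn1c* (ENSMUSG00000037664.13, chromosome 7, 143458339 to 143461050, minus strand) it was 165156 bp downstream, from 143294845 to 143296943. This site covered the TSS of *Kcnq1ot1*, the long antisense RNA known from the imprinting of this domain, with its midpoint 655 bp from that TSS. Among coding genes *Cdkn1c* had the nearest TSS to it in spite of the distance, and 48.2% of coding genes had a site as near. Since the height that a site needed to enter the list is not given, a gene without a listed site is not shown to be unbound.

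**Figure D2:**
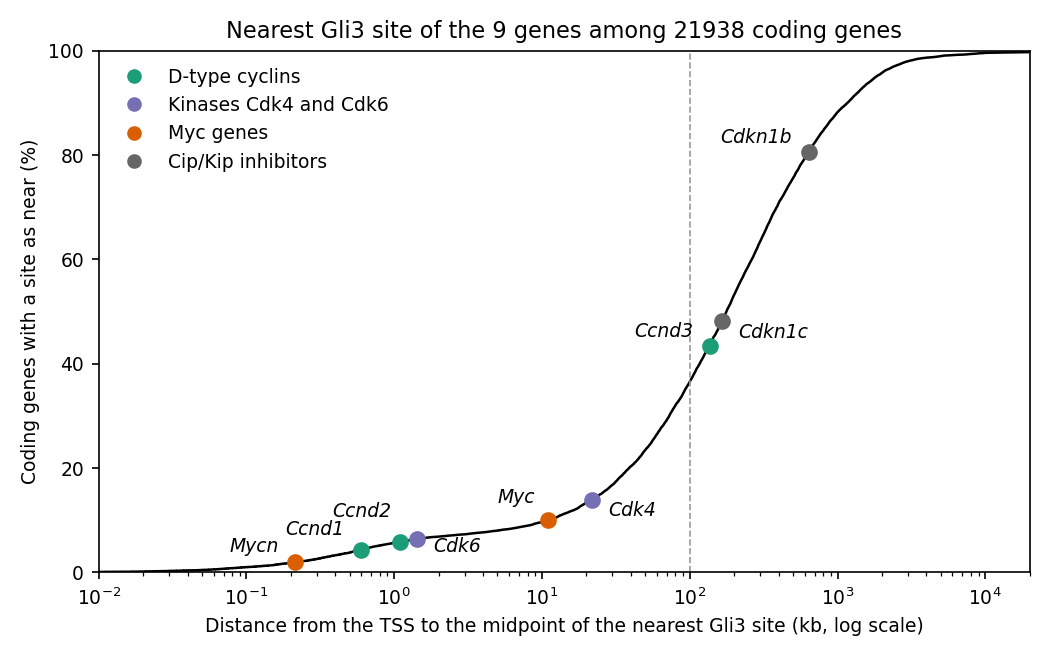
Distance in kb, on a log scale, from the TSS of a gene to the midpoint of its nearest Gli3 site (x axis) against the percent of 21938 coding genes with a site as near (y axis). The black line is all coding genes, coloured points are the 9 genes by role, and the dashed line marks 100 kb. *Mycn*, *Ccnd1*, *Ccnd2* and *Cdk6* sit between 1.91 and 6.40%, and *Ccnd3*, *Cdkn1c* and *Cdkn1b* sit beyond the dashed line.

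For 10 of the 13 sites the gene they were given to had the nearest coding TSS, and this was so for 27.1% of the gene and site pairs over all coding genes. The 3 exceptions were both *Cdk4* sites and the last *Cdk6* site. The windows of *Cdk6*, *Mycn* and *Myc* held the TSS of no other coding gene, which leaves few genes to be nearer. The comparison with 27.1% was not adjusted for the spacing of genes. When every annotated gene could compete, noncoding ones included, the member remained the nearest for 7 sites. Distance does not say which gene a site acts on.

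The widths of the sites spanned much of the range of the list. The median was 2786 bp (range 748 to 7030) against 1989 bp for all sites. Sites of 4 kb or more made up 10.3% of the list, and 5 of the 13 were of this kind, over *Ccnd1*, *Ccnd2*, *Cdk6* (2 sites) and *Mycn*. Of the 4 sites over the TSS of a member, 3 were as wide as that, and among the 1209 sites over the TSS of any coding gene the share was 12.9%. The *Mycn* TSS site was the exception in width, but the 6738 bp site began 276 bp from it.

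CpG content followed the position of the sites in part. The CpG observed to expected ratio compares the number of CG dinucleotides with that given by the C and G content, and it is high in CpG islands. In the 4 sites over the TSS of a member it ran from 0.566 at *Ccnd2* through 0.629 at *Ccnd1* and 0.706 at *Cdk6* to 0.762 at *Mycn*. The median of the 1209 sites over coding TSSs was 0.634, so that these 4 lay on both sides of it. The other 9 sites ran from 0.214, in an intron of *Cdk6*, to 0.653, in the site over *Eef1akmt3* and *Mettl1*. The highest of these 9 were thus promoter sites of other genes, and they were above the *Ccnd2* TSS site. The site over the TSS of *4930519A11Rik*, however, had only 0.319, below the wide *Mycn* site at 0.478. The median of all sites was 0.304. Median GC content was 55.7% over the 13 sites and 51.4% over all sites, and the median repeat content was 12.7 and 12.4%.

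**Figure D3:**
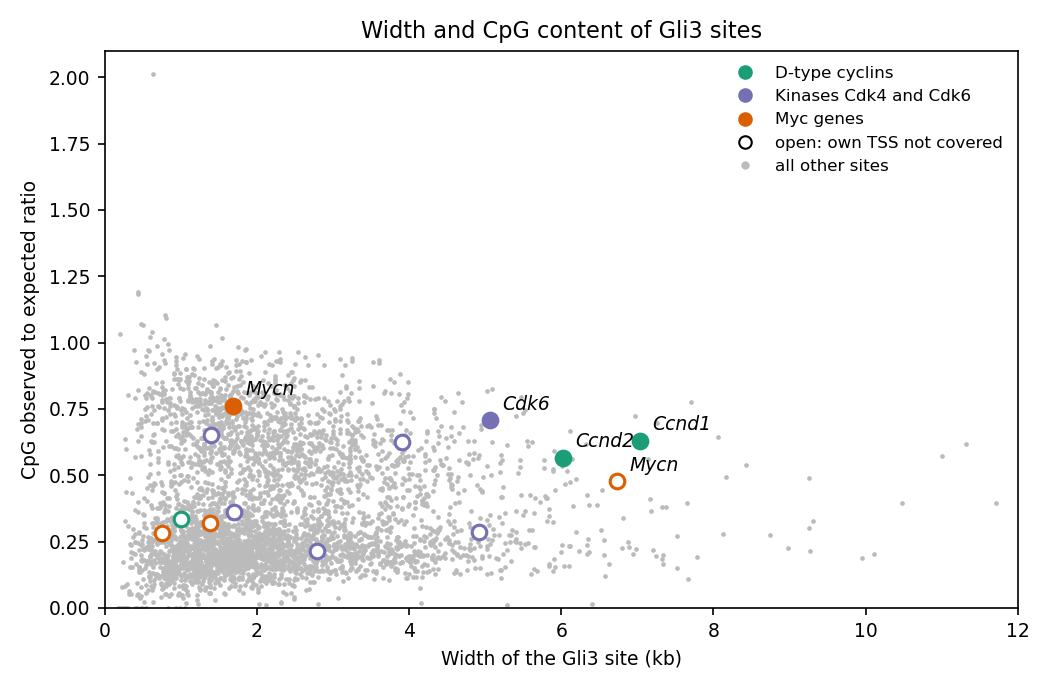
Width of each Gli3 site in kb (x axis) against its CpG observed to expected ratio (y axis), with 1 point for each of 4099 sites on chromosomes. Grey points are all other sites, coloured points the 13 sites by the role of their gene, filled where the site covers the TSS of that gene. The filled points lie between 0.566 and 0.762, and 3 of the 4 are wider than 4 kb.

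GLI words were then counted in the sites on both strands. The core occurred in 1 of the 13 sites (7.69%, exact Clopper-Pearson 95% interval 0.195 to 36.0%) and in 12.2% of all sites. The interval covers counting error over sites only, and at 13 sites it holds the share of the whole list. The core of the *Ccnd2* site lay 2218 bp upstream of the gene-level TSS, and a GACCACCC without the last base lay 1130 bp upstream. Both were on the minus strand, which is the strand of the gene, and both were farther from the other starts in the site. The 8-base word, which every core contains, occurred in 4 sites (30.8%), against 20.4% of all sites. These were the *Ccnd2* site, the *Cdk6* sites at the TSS and at +63853, and the site over *Eef1akmt3* and *Mettl1*. In the *Cdk6* TSS site the word lay 2119 bp downstream of the gene-level TSS, and a CACGTG followed at +2190 in the same stretch. That TSS is the start of transcript Cdk6-205. The next annotated start, at +2247, and the RefSeq start, at +2408, lie downstream of both words.

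With 1 mismatch allowed, exact cores included, 11 of the 13 sites held a match, and so did 64.7% of all sites, without matching for width. The matches numbered 22, with 4 each in the *Ccnd1* site and the wide *Mycn* site. The 2 sites without any were the intronic *Ccnd2* site and the *Mycn* TSS site. The 4 *Ccnd1* matches lay at +2082, +1677, -1385 and -2833, that is on either side of the TSS. In the central 200 bp of the sites there was no exact core. A match to these letters is not by itself a bound position, and no match says only that the letters are not in the site.

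E-boxes of Myc and Max were numerous in the sites over the TSSs of *Ccnd1*, *Ccnd2* and *Cdk6*. They were counted as the word CACGTG, and no binding of Myc or Max was measured. CACGTG was in 5 of the 13 sites (38.5%, exact Clopper-Pearson 95% interval 13.9 to 68.4%) and in 30.2% of all sites. The sites over the TSSs of *Ccnd1*, *Ccnd2* and *Cdk6* held 5 copies each, and the other 2 sites held 1 each. In *Ccnd1* the copies were at -433, -2671, -3082, -3361 and -3550, so that 4 of them lay in the upstream end of the site. In *Ccnd2* they were at +558, -61, -1464, -1562 and -3549, all upstream of the next annotated start at +1133. In *Cdk6* they were at -940, +32, +109, +753 and +2190, all upstream of the next annotated start at +2247. No *Mycn* or *Myc* site held a copy.

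A word of 6 bases turns up more often by chance in a longer sequence, and the counts were therefore set against sites of like width. Among the 422 sites of 4 kb or more, 58.3% held CACGTG, as did 4 of the 5 sites of these genes. Of the same 422, 1.42% held 5 or more copies (6 sites), and 3 of these 6 were the *Ccnd1*, *Ccnd2* and *Cdk6* sites. The word holds a CG, and the 422 were not matched for CpG content. Of them, 266 covered no coding TSS. All sites covering no coding TSS had a median CpG ratio of 0.237, and these 3 sites had 0.566 to 0.706. In the whole list 9 sites had 5 or more, led by sites nearest to *Thada* with 55 and *Lct* with 42. The motif was set with the other lists, but the number 5 was chosen after the copies were counted. Per length, the 13 sites held 0.383 copies per kb, all sites 0.190, sites of 4 kb or more 0.232 and sites over a coding TSS 0.216. No test was made of these numbers, since the genes were chosen with results known.

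**Figure D4:**
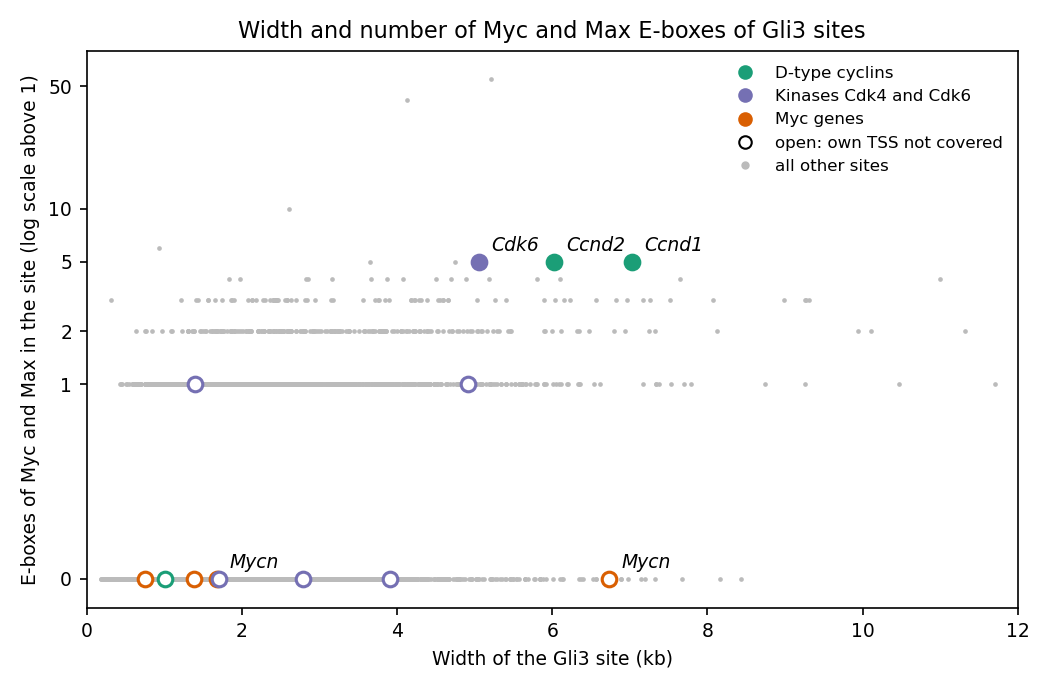
Width of each Gli3 site in kb (x axis) against the number of E-boxes of Myc and Max in it (y axis, log scale above 1), with 1 point for each of 4099 sites. Grey points are all other sites, coloured points the 13 sites by the role of their gene, filled where the site covers the TSS of that gene. The *Ccnd1*, *Ccnd2* and *Cdk6* sites stand at 5, and both labelled *Mycn* sites stand at 0.

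E2F words, TTTGGCGC or TTTCCCGC, are bound by the factors that the retinoblastoma protein holds in check. They were in 2 of the 13 sites, against 6.15% of all sites. The site over the *Mycn* TSS held TTTGGCGC at -86 and -101, and the *Ccnd1* site held 1 E2F word at -1676. Of all sites, 18 (0.439%) held 2 or more such words. In the RefSeq promoter stretches 1.56% held an E2F word, and 13 of 32851 held 2 or more, *Mycn* among them. The number 2 was chosen after the *Mycn* copies were seen. The SP word GGGCGGGG, common in CpG-rich promoters, was in 6 of the 13 sites, against 33.8% of all sites. The *Cdk6* TSS site held 4 copies, the site over *Ctdsp2* 3, the *Ccnd2* and *Mycn* TSS sites 2 each, and the intronic *Ccnd2* site and the *Cdk6* site at +54970 1 each. The *Ccnd1* site, although CpG-rich, held none.

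Words of neural factors were counted as well. The E-box CAGCTG, bound by proneural bHLH factors, was in 9 of the 13 sites (69.2%) against 68.6% of all sites. The homeodomain word TAATTA was in 8 of the 13 (61.5%, exact Clopper-Pearson 95% interval 31.6 to 86.1%) against 38.2%, a share that the interval holds. The TAATTA matches were spread over the genes, with 3 in the *Cdk6* site at +54970 and at most 2 in any other. Only CACGTG was set against sites of like width. The shares for the GLI, E2F, SP, CAGCTG and TAATTA words were not, and the 13 sites are wider than the list (median 2786 against 1989 bp).

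**Figure D5:**
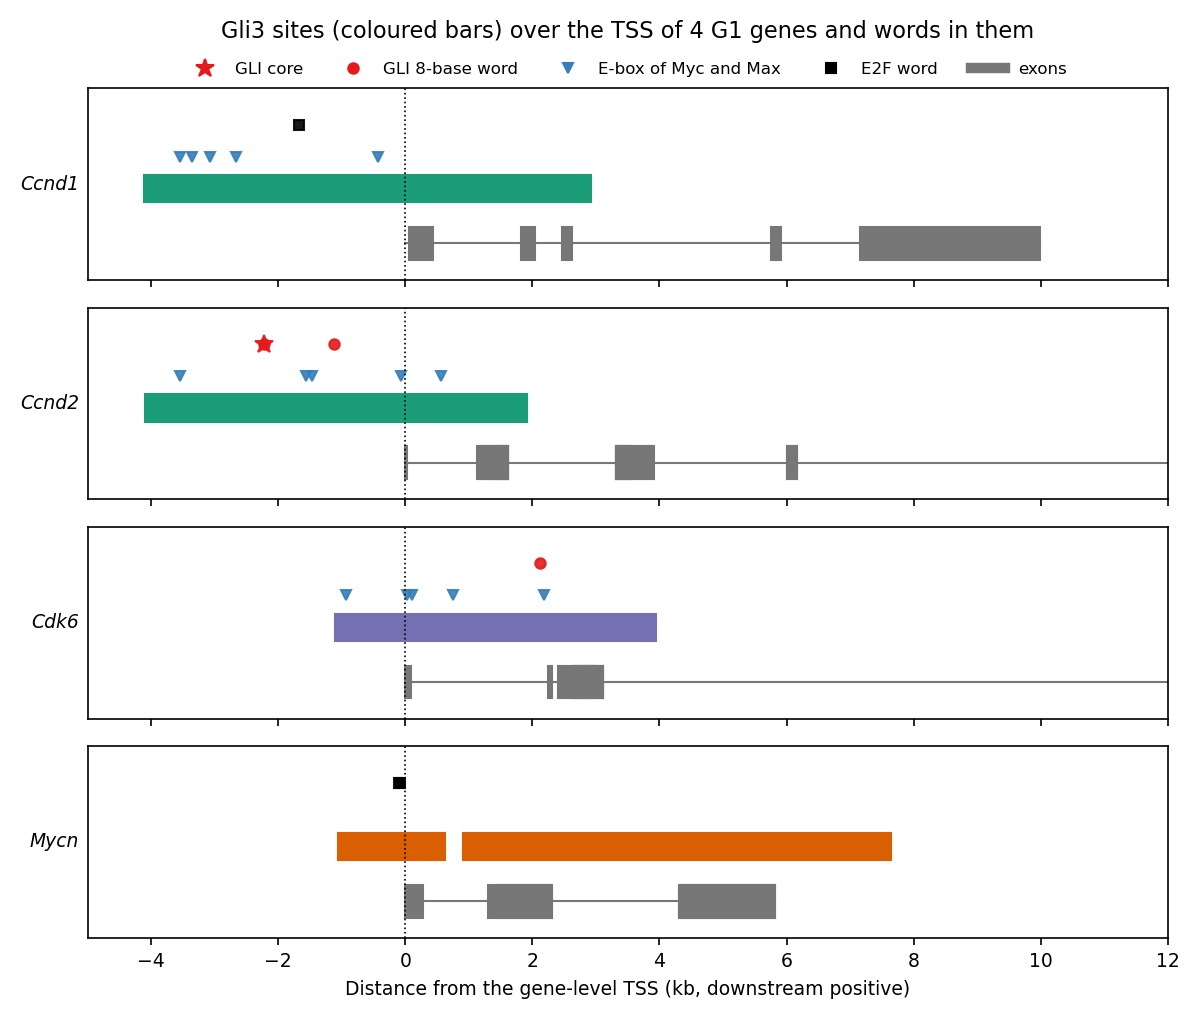
The 4 genes with a Gli3 site over the TSS, along the distance from the TSS in kb with downstream positive. Coloured bars are sites, grey boxes the exons of protein-coding transcripts, and symbols above the bars the words found in the sites, at heights with no meaning. Blue triangles, the E-boxes of Myc and Max, stand 5 in each of the *Ccnd1*, *Ccnd2* and *Cdk6* rows and are missing from *Mycn*, whose TSS has the E2F words.

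Of the promoter sequences of RefSeq on GRCm38.p6, which reach from 250 bases before a TSS to 50 after it, 6 belonged to 5 of the genes, with 2 for *Ccnd3* and 1 each for *Cdk4*, *Cdk6*, *Mycn* and *Cdkn1b*. *Ccnd1*, *Ccnd2*, *Myc* and *Cdkn1c* had no entry. Those of *Cdk6* and *Mycn* were inside a Gli3 site. The RefSeq start of *Cdk6* lies 2408 bp downstream of the GENCODE start, and the TSS site contained both. No GLI core or 8-base word was in any of the 6 stretches, and the core was in 0.253% of all promoter stretches and the 8-base word in 0.807%.

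Further genes of the G1 to S transition, 29 in all, were placed by the same rule. A site was found at 17 of them (58.6%), against 37.4% of coding genes, and 24 distinct sites were involved. At 7 genes (24.1%) a midpoint lay within 2 kb of the TSS, against 6.88% of coding genes. These were the cyclin gene *Ccna2* (583 bp from the TSS), the pocket protein genes *Rb1* (709 bp) and *Rbl1* (549 bp), the E2F genes *E2f1* (621 bp), *E2f3* (903 bp) and *E2f5* (640 bp), and the phosphatase gene *Cdc25a* (727 bp), whose product activates cyclin-dependent kinases. Within 10 kb, where 9.7% of coding genes had a site, there were 2 more, the inhibitor gene *Cdkn2b* at 2511 bp and *Cdk2* at 8932 bp, whose nearest site lay nearer to the TSS of *Rab5b*. The median distance to the nearest site was 76.2 kb over these 29 genes, 10.9 kb over the 9 members and 177 kb over all coding genes.

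Further inhibitors of cyclin-dependent kinases were placed in the same way. *Cdkn1a*, the third Cip/Kip gene, had its nearest site at 138408 bp, and 43.9% of coding genes had a site as near. None of the 3 Cip/Kip genes thus had a site within 100 kb. Only 37.4% of coding genes had a site by the rule, so that a gene without one is common. Of the 4 INK4 genes, whose products bind Cdk4 and Cdk6, 3 had a site within 100 kb, against the same 37.4%. *Cdkn2a* and *Cdkn2b* shared 1, nearest to *Cdkn2b*, and *Cdkn2c* was the gene without. Of the 10 genes of the Myc network beyond the members, such as the Myc partner *Max* and the antagonist genes *Mxd1* and *Mxd4*, 4 had a site (40%), close to the 37.4% of coding genes. Only *Mycl*, the third Myc gene, had one within 10 kb, at 1118 bp from its TSS. *Max* itself had its nearest site 593288 bp away.

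The arrangement of sites at the members with 3 or more was shared with other genes. Counted in 4 distance classes, to 2, 10, 50 and 100 kb from the TSS, which leave out the last *Cdk6* site, 38 other coding genes had the same numbers as *Cdk6* and 12 the same as *Mycn*.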

How the data were processed

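From cortices of wild-type embryos at embryonic day 15, 3 Gli3 ChIP and 3 input libraries were made. The deposited list holds only the position and name of each peak in mm10. Its header names paired reads of 85 bases, a repeat filter, bowtie2 and an irreproducible discovery rate analysis, of which the authors deposited the optimal peaks. The submitters' processing notes name Bowtie2, SAMtools and MACS2. Settings and thresholds, which decide how many sites there are and how wide, are not given in the sources used here.

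Starts were made 1-based. Of the sites, 15 on scaffolds were left out of sequence counts. Genes came from GENCODE M21, with the outermost TSS as the gene-level TSS, and sequence came from GRCm38.p6. The scripts were tested on simulated data and recovered the sites of 400 of 400 genes and 300 of 300 planted cores. Python 3.11.15, pysam 0.24.0, scipy 1.17.1 and matplotlib 3.10.9 were used. The members, wider lists and words were chosen with earlier results of these data known. All 9 members were named, with the nearest coding gene of each site and, from the wider lists, genes with a site within 10 kb. Other genes named at sites or in the lists were chosen after their values were seen. Alternatives changed the distance, the promoter and the GLI match. Some items that these rules cover are not reported here.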

Additional observations from a re-analysis of the deposited data

How the results depend on the processing

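The list holds no depth, so that what depth limits could not be measured. The number of sites of the 9 genes was 13, and it was 22 with 250 kb in place of 100 kb and 12 with 50 kb, without the gene body or with sites within 1 kb joined. At 250 kb 8 genes had a site, with 5 at *Cdk4*, 4 at *Ccnd2*, 3 at *Ccnd1*, and 1 each added at *Ccnd3* and *Cdkn1c*. A site is common at such distances, since 58.0% of coding genes had one within 241512 bp of the TSS. *Cdkn1b* had none under any setting. Sites within 1 kb of the TSS were found at 2 genes in place of 4, since the *Ccnd2* and *Cdk6* midpoints lie beyond that distance. Of all coding genes, 5.89% had a site midpoint within 1093 bp. With 2 kb of upstream sequence only, 3 of the 9 genes had a site, and the share of coding genes at that setting is not given here. The number of sites with a GLI core, 1, became 4 with the 8-base word, 11 with 1 mismatch allowed and 0 in the central 200 bp. Of 21 alternatives, 16 gave a count within 1.5 times the value reported.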
